A study of Homo sapiens with 2 samples.

Results

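The machinery that starts and carries out DNA replication was compared between DLD-1 cells with a wild-type p53 transgene switched off and the same cells with it switched on. The set held 49 genes of 19775 genes named on the arrays, taken from a list of replication genes and grouped by subcomplex, and each was read from the probe sets (groups of short probes for 1 transcript) annotated to it alone. DLD-1 cells come from a human colorectal carcinoma and carry mutated endogenous p53. Here they had been stably transfected with wild-type p53 under tet-off control, so that tetracycline represses the transgene. Cells of the p53 off group were grown with tetracycline, and the p53 on cells had been without it for 9 h. Both groups carried the construct, so the control differed in the drug and not in genotype, and no arm separated the loss of tetracycline from the gain of p53. The labels do not state whether the transfected line was a single clone. Each group was 1 Affymetrix array of total RNA, so the differences below have no replicate check and no test between groups.

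As background, replication is prepared in G1, when the origin recognition complex (ORC) sits on origins and, with CDC6 and CDT1, loads a ring of the proteins MCM2 to MCM7 around the DNA, while geminin blocks CDT1 once S phase has begun. The kinase CDC7 with its partner DBF4, together with cyclin-dependent kinases, then lets CDC45 and the GINS complex join that ring to form the active helicase. Polymerase alpha with primase lays down primers, polymerase epsilon and polymerase delta extend the strands, the loader RFC places the sliding clamp PCNA, RPA covers single-stranded DNA, and FEN1 and LIG1 join the lagging strand. Many of these genes are transcribed under E2F factors, and p53 is known to act on such genes through p21 and the pocket proteins.

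Replication genes were mostly lower on the p53 on array. All 49 genes were measured, meaning that the brightest probe set of each lay at or above a floor of 112.4, the median of all signals, on at least 1 array, and in fact on both. Of the 49, 33 were at least 1.5-fold lower with p53 on, 2 were at least 1.5-fold higher and 14 lay between. The same 1.5-fold limits held 25.9% of the 13915 measured genes on the lower side and 25.9% on the higher side, against 67.3% and 4.08% of the replication genes. After loess, 27 were lower and 4 higher: ORC3, MCM4, CDC45, GINS2, POLA1, POLD1 and WDHD1 came within 1.5-fold, with log2 ratios from -0.58 to -0.36, CLSPN passed it on the lower side, and ORC6 and GINS4 on the higher side. At 2-fold, on the signals as deposited, 23 replication genes (46.9%) were lower and 2 higher, beside 13.5% and 15.3% of all measured genes. The median log2 ratio of p53 on over p53 off was -0.84 for the replication genes and 0.0035 for all measured genes. In the plot of both signals per gene, the p53 on point lies to the left of the p53 off point for 42 of the 49 genes (85.7%). The log2 ratio was below 0 for 49.8% of all measured genes. In RNA from whole cultures, fewer cells in S phase and less transcript per cell cannot be told apart.

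**Figure D1:**
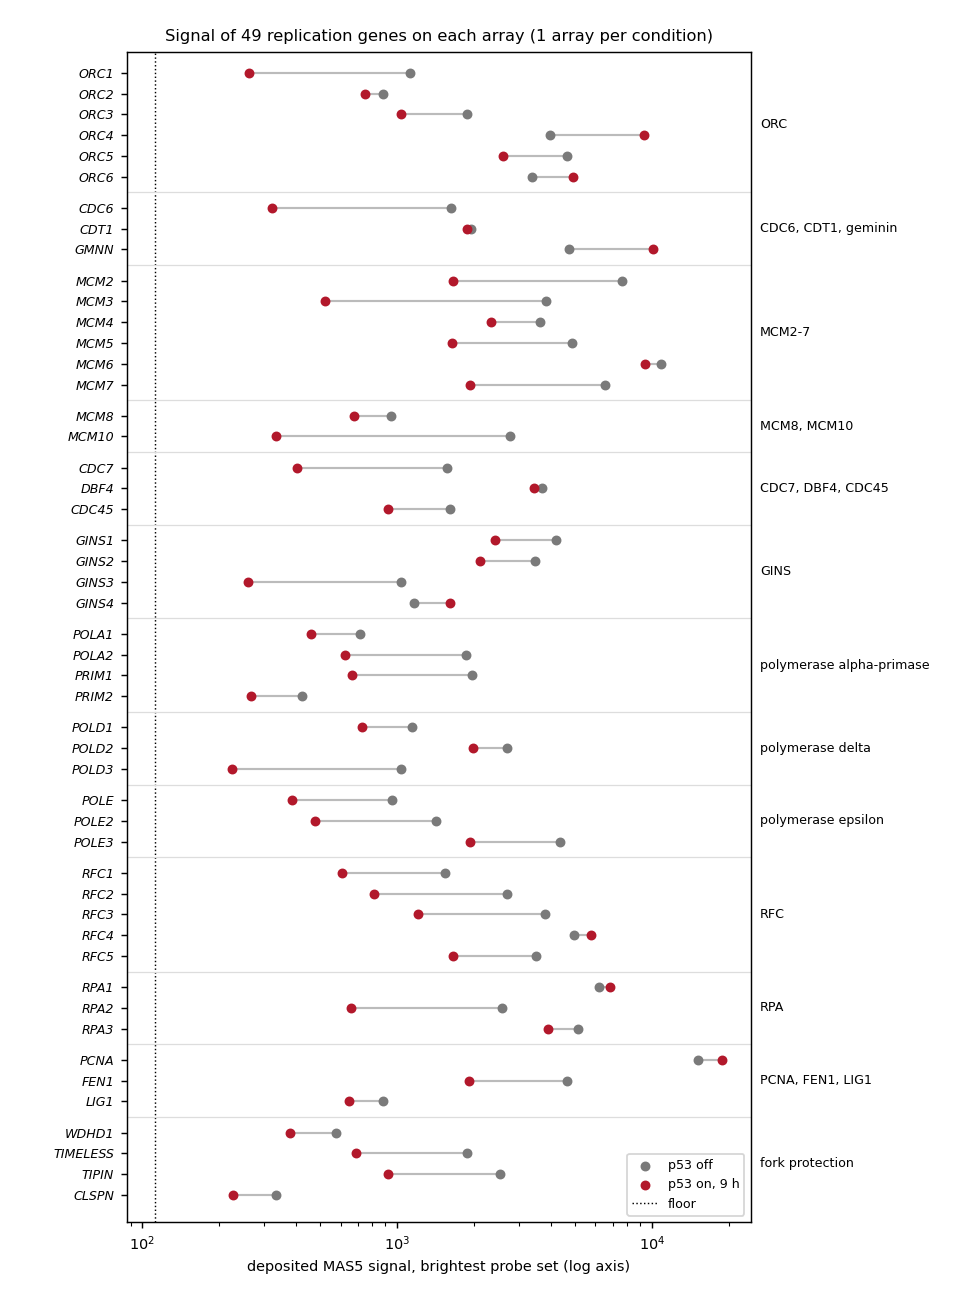
Deposited MAS5 signal (log axis) of the brightest probe set of each of 49 replication genes on the p53 off array (grey) and the p53 on array (red), by subcomplex, with 1 array per condition and no error bars. ORC4, GMNN, ORC6, GINS4, RFC4, RPA1 and PCNA are the 7 genes with the higher signal on the p53 on array, of which only ORC4 and GMNN stay above 0 on the log2 scale when the arrays are scaled to the spike-ins.

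The arrays themselves differed in ways that bear on each of these ratios. Both had been scaled to the same trimmed mean signal of 500.07. The 18 hybridization spike-in probe sets nonetheless read higher on the p53 on array, by a median factor of 1.89 (range 1.47 to 2.59). Scaling to them divides every p53 on signal by that median factor, so small ratios above 0 turn negative whatever the gene. When the arrays were scaled to these controls, all measured genes had a median log2 ratio of -0.83, with 59.5% of genes past 1.5-fold on the lower side and 9.35% on the higher side, and the replication median was -1.76. All directions below are therefore relative to the median gene. The ratio of 3' to 5' signal, which is raised in degraded or incompletely labelled RNA, was 1.37 with p53 off and 7.29 with p53 on for beta-actin, and 0.97 and 1.77 for GAPDH. The part of this in the replication ratios was not tested. CDKN1A, the p21 gene and a standard p53 target, read 2723 and 23349, 8.58-fold higher on the array labelled p53 on. Of 12 colon epithelial markers, EPCAM, CDH1, KRT8 and KRT18 were bright on both arrays, while KRT20 and CDX1 were under the floor on both. The summed signal of these 12 was 111107 (p53 off) and 175979 (p53 on), while their median signal was 2626 and 1781. Of the 10 measured, 5 were at least 1.5-fold higher and 1 lower, from CLDN7 at 1.91-fold lower to LGALS4 at 6.09-fold higher. The median log2 ratio of the epithelial markers measured in each case depended on the scaling. It was 0.58 as deposited, 0.077 after quantile normalization, 0.22 after loess and -0.51 with spike-in scaling. The summed signal of 6 leukocyte markers was 1299.6 and 1138, most of it CORO1A (971.5 and 481.7), while their median signal was 71.4 and 128.6. PTPRC, CD3E and CD14 were under the floor on both arrays. That of 9 fibroblast and endothelial markers was 555.5 and 1349, with COL1A1 and COL3A1 under the floor on both and none above 231.4. The part of these markers in the replication ratios was not tested.

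Many promoters of these genes held a motif that the choice of the set did not use. RefSeq windows of 300 bases (build GRCh38.p14, from 250 bases before a transcription start to 50 after it) were available for 43 of the 49 genes at 56 starts. On either strand, the E2F-like pattern TTTNNCGC was found in 44.6% of the 56 windows and in 6.89% of all 35116 windows. Counted by gene, 25 of 43 replication genes had it in at least 1 window. The pattern was about as frequent in genes that were at least 1.5-fold lower with p53 on (17 of 29, 58.6%) as in the rest (8 of 14, 57.1%). The CHR pattern TTTGAA, an element of G2 and mitosis promoters, was found in 3.57% of the replication windows and 15.2% of all windows. The box CCAAT, bound by NF-Y, was found in 51.8% and 34.6%, and the GC box GGGCGG in 76.8% and 45.0%. Patterns of 2 kinds can overlap: the E2F-like pattern and the GC box did so at 4 places in the replication windows. The comparison windows came from 27305 genes, were not limited to the 13915 measured genes and were not matched for base content. A match is a run of letters and not a measured binding site.

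**Figure D2:**
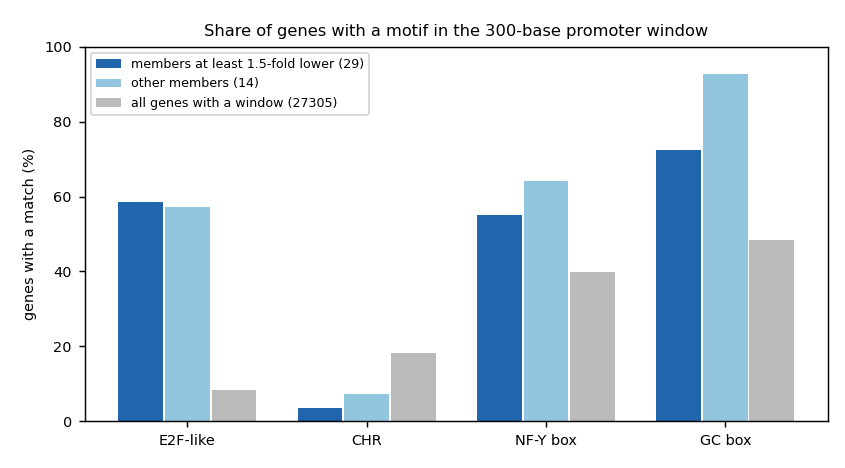
Share of genes (%, bars from 0) with each motif in a 300-base promoter window, for 29 replication genes at least 1.5-fold lower with p53 on, 14 other replication genes and 27305 genes with a window, the NF-Y box being the CCAAT box. The E2F-like bars of the replication groups stand at 58.6% and 57.1%, and that of all genes at 8.23%.

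The 200 bases before the start are printed for 3 genes that were lower and 3 that were not. Each is shown at its RefSeq start with the most E2F-like matches. Only MCM10, a lower gene, stands for windows without that pattern, and none without it is printed for genes that were not lower. Capitals mark the E2F-like pattern, the CHR pattern and the CCAAT box on either strand. The first 3 are MCM3 (chr6:52284743-52284942, minus strand), CDC7 (chr1:91500912-91501111, plus strand) and MCM10 (chr10:13161358-13161557, plus strand), which were 7.36-fold, 3.87-fold and 8.30-fold lower with p53 on.
MCM3: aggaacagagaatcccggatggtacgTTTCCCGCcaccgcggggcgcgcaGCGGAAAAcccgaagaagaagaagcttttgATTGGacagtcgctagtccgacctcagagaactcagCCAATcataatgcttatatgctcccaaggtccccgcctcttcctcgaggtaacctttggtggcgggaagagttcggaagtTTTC
CDC7: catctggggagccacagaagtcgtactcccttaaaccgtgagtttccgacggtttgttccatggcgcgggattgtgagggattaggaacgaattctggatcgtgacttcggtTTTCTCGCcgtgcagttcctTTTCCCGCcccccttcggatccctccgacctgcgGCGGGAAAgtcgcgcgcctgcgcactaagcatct
MCM10: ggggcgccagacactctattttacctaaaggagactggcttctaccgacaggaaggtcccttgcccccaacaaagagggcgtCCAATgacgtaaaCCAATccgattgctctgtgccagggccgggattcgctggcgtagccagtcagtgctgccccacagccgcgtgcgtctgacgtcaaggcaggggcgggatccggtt

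The other 3 are MCM6 (chr2:135876444-135876643, minus strand), PCNA (chr20:5126623-5126822, minus strand) and GMNN (chr6:24775213-24775412, plus strand), with log2 ratios of -0.21, 0.32 and 1.09.
MCM6: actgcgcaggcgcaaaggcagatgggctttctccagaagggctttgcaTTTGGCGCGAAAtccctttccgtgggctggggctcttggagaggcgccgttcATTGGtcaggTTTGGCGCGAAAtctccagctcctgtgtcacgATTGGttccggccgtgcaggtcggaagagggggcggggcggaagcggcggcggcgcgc
PCNA: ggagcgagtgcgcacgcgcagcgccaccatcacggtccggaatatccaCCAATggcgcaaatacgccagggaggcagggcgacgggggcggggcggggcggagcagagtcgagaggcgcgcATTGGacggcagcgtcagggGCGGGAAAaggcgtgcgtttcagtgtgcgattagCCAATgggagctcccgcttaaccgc
GMNN: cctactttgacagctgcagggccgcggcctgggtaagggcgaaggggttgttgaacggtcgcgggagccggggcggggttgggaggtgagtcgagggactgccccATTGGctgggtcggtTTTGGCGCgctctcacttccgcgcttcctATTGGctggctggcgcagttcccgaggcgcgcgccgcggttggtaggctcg

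MCM3 had 3 E2F-like matches, the last running across the start so that only its first letters are printed, and CDC7 had 3, beginning at -88, -68 and -34 relative to the start. MCM10, with the lowest ratio of the 49 genes, had none in its window. MCM6 had 4 matches in 2 pairs, each of 2 overlapping matches on opposite strands, with the first matches beginning at -152 and -90. That was the most matches of any of the 43 genes, although at only 2 places. The MCM6 signal was within 1.5-fold. PCNA and GMNN had 1 match each.

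The genes of the origin recognition complex differed among themselves, with 3 of 6 at least 1.5-fold lower and 1 higher. For comparison here and in the groups below, 25.9% of all measured genes passed 1.5-fold on each side, and 13.5% were at least 2-fold lower. ORC1, the subunit whose level cycles and which opens licensing in G1, was 4.25-fold lower, with signals of 1119 (p53 off) and 263.1 (p53 on), the order kept in all pairs of signals below. ORC3 (1875 and 1039.95) and ORC5 (4651 and 2602), subunits of the stable core, were 1.80-fold and 1.79-fold lower (ORC3 within 1.5-fold after loess), and the other measured probe set of ORC5 had a log2 ratio of -0.96. ORC2, also of the core, read 883.0 and 745.9, a log2 ratio of -0.24, which became 0.031 after loess, while its other probe set gave -1.16. ORC4, an ATPase subunit, read 3988 and 9335 and was 2.34-fold higher, with 1.12 on its other probe set, but its log2 ratio of 1.23 was 0.31 with spike-in scaling, within 1.5-fold. ORC6, the subunit least like the rest, read 3371 and 4911.5, a log2 ratio of 0.54 that turned to -0.38 with spike-in scaling. The median over the 6 subunits was -0.54, with ratios from -2.09 to 1.23.

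The licensing factors differed too, with 1 of 3 lower and 1 higher, beside 25.9% of all measured genes on each side. CDC6, the ATPase that loads the helicase with ORC, read 1627 and 324.1 and was 5.02-fold lower, and its other probe set was lower still at a log2 ratio of -3.14. GMNN, which encodes geminin, the inhibitor of CDT1, read 4743 and 10109.6 and was 2.13-fold higher, a log2 ratio of 1.09 that was 0.17, within 1.5-fold, with spike-in scaling. It had only 1 probe set. CDT1, the other loading factor, was nearly level on its brightest probe set at 1957 and 1883, and its log2 ratio of -0.056 became 0.18 after loess and 0.0087 after quantile normalization. The other CDT1 probe set, read at 369.8 and 166.2, gave -1.15, so the CDT1 value depended on the probe set.

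In the MCM ring, 5 of the 6 subunit genes were at least 1.5-fold lower and none was higher. MCM3 had the lowest ratio of the 6, at 3842 and 522.3, 7.36-fold lower. MCM2 read 7639.6 and 1662 and was 4.60-fold lower, and MCM7, at 6552 and 1931, was 3.39-fold lower with -1.16 on its other probe set. MCM5 (4854 and 1641) was 2.96-fold lower, with -1.46 on its other probe set. MCM4 was close to the threshold at 1.56-fold lower (3637 and 2331; -0.46 on the log2 scale after loess, within 1.5-fold), and its 4 measured probe sets ran from -1.64 to 0.27. MCM6 was the exception at 10802 and 9369, 1.15-fold lower, with a second probe set at -0.36. The products of all 6 genes form a ring of 1 copy each, and the median of their log2 ratios was -1.66.

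MCM10, which is needed to activate the loaded helicase, had the lowest ratio of all 49 genes, at 2774 and 334.2, 8.30-fold lower. All 3 of its probe sets were lower, with log2 ratios up to -1.41. MCM8, a relative of the ring subunits that acts with MCM9 in repair, read 950.6 and 678.8, a log2 ratio of -0.49, and 0.047 on its other probe set.

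Among the genes that fire origins, CDC7, the kinase that phosphorylates the MCM ring, read 1567 and 404.7, 3.87-fold lower. DBF4, its activating subunit, read 3695 and 3456, a log2 ratio of -0.096, or 0.054 after loess. Each gene had 1 probe set, so this contrast between kinase and activator had no second measurement. CDC45, a component of the active helicase, was 1.75-fold lower at 1614 and 924.8, and within 1.5-fold after loess (-0.51). Of the GINS genes, whose products bridge the MCM ring and polymerase epsilon, GINS3 was the lowest at 1031 and 260.5, 3.96-fold lower and -1.28 on its other probe set. GINS1 (4219 and 2423) and GINS2 (3477 and 2119) were 1.74-fold and 1.64-fold lower, GINS2 within 1.5-fold after loess (-0.52). GINS4 read 1160.2 and 1609 and was above 0 on all 4 measured probe sets, with log2 ratios from 0.38 to 1.60, although the brightest turned to -0.45 with spike-in scaling.

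Of the 10 genes of the replicative polymerases, 9 were at least 1.5-fold lower, with a median log2 ratio of -1.24 and a range from -2.20 to -0.44. For polymerase alpha and primase, the enzyme that makes primers, POLA2 (1857 and 622.4) was 2.98-fold and PRIM1 (1962 and 667.2) 2.94-fold lower. A dim further probe set of POLA2 read 125.8 and 189.6, a log2 ratio of 0.59. POLA1, the catalytic subunit, was 1.55-fold lower at 714.4 and 459.8 (within 1.5-fold after loess, at -0.42), and PRIM2, the large primase subunit, 1.59-fold lower at 423.1 and 266.0 (within 1.5-fold with a pseudocount equal to the floor, at -0.50). A further 4 probe sets are shared by PRIM2 and its near copy PRIM2BP and were left out, so the PRIM2 value is uncertain; the brightest of them read 356.8 and 134.4.

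All 3 genes of polymerase epsilon, the leading strand enzyme, were at least 2-fold lower. POLE, the catalytic subunit, read 959.2 and 387.2 (2.48-fold), POLE2 1416 and 475.4 (2.98-fold) and POLE3, a histone-fold subunit, 4344 and 1934 (2.25-fold). Each had a single probe set. In polymerase delta, the lagging strand enzyme, POLD3 read 1039 and 225.8 and was 4.60-fold lower, but a dim second probe set read 158.3 and 156.0. POLD1, the catalytic subunit, was 1.57-fold lower at 1147 and 730.1 (within 1.5-fold after loess, at -0.36, and after quantile normalization, at -0.57), and POLD2, which holds the subunits together, 1.36-fold lower at 2704 and 1993.

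Of the clamp loader, 4 of 5 genes were at least 2-fold lower. RFC2 read 2707 and 812.1 (3.33-fold), RFC3 3812 and 1203 (3.17-fold) and RFC1, the large subunit, 1546 and 609.7 (2.54-fold), and all their measured probe sets were below 0. RFC5 was 2.13-fold lower at 3515 and 1651, and its 3 probe sets disagreed, at -1.09, 0.74 and -1.43. RFC4 read 4955 and 5777, a log2 ratio of 0.22, or -0.70 with spike-in scaling. PCNA, the clamp that this complex loads and a gene that p53 itself can activate, read 15090.1 and 18886, with a log2 ratio of 0.32 that became 0.014 after loess and -0.60 with spike-in scaling. PCNA had 1 probe set, so this value had no second measurement.

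Of the genes that join Okazaki fragments, FEN1, the flap nuclease, read 4641 and 1917 and was 2.42-fold lower, with -2.71 on its other probe set. LIG1, the ligase, was 1.36-fold lower at 881.8 and 648.5. In RPA, the single-strand binding trimer, RPA2 alone was past 1.5-fold, at 2570.1 and 656.6, 3.91-fold lower. RPA3 read 5109.9 and 3907, 1.31-fold lower. RPA1, the large subunit, was nearly level at 6222 and 6835 on its brightest probe set, a log2 ratio of 0.14 that turned to -0.78 with spike-in scaling, while a second probe set gave -0.85.

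All 4 fork protection genes had a log2 ratio below 0 on their brightest probe sets, and 3 were at least 1.5-fold lower. TIPIN (2529.9 and 918.1) and TIMELESS (1880.1 and 689.1), which form a complex that couples polymerase and helicase, were 2.76-fold and 2.73-fold lower. WDHD1, which tethers polymerase alpha to the helicase, was 1.52-fold lower at 577.9 and 381.1 (within 1.5-fold after loess, at -0.43), and its other probe sets gave -1.53 and -1.65. CLSPN, the gene of claspin, the adaptor that passes fork stress to the checkpoint, lay just inside the band at 1.46-fold (333.5 and 227.9), and its second probe set was level at 196.1 and 196.5.

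**Figure D3:**
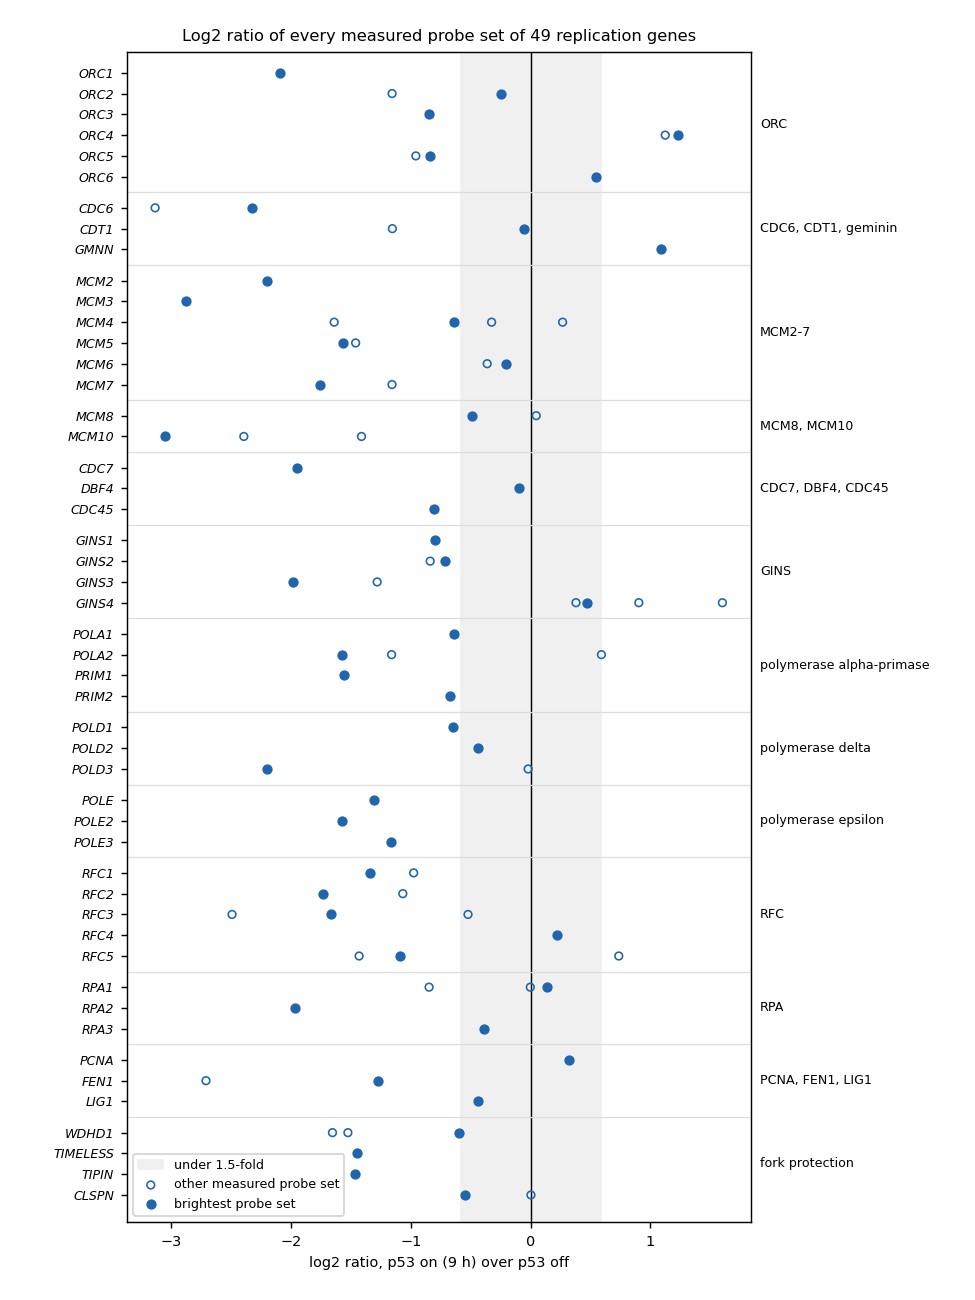
Log2 ratio of the p53 on over the p53 off signal for each of 83 measured probe sets of the 49 replication genes, by subcomplex; filled points are the brightest probe set of a gene, open points the others, and the grey band spans 1.5-fold in either direction. Of the 83, 53 lie to the left of the band and 7 to the right, before any scaling to spike-ins.

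Probe sets of 1 gene were the only repeat measurement, and they share the same 2 arrays. Of 90 probe sets annotated to these genes alone, 83 were measured, and 67 of those had a log2 ratio below 0. For 24 genes with 2 or more measured probe sets, all were below 0 in 16 (66.7%), against 30.6% of all 6676 such genes. In 11 of the 24 (45.8%) every measured probe set was at least 1.5-fold lower, against 10.4% of all such genes. Only ORC4 and GINS4 had every probe set above 0, before spike-in scaling, against 1870 of the 6676 genes. Mixed signs, or a ratio of 0, occurred in 2762 of the 6676. Among the replication genes, MCM4, MCM8, POLA2, RFC5, RPA1 and CLSPN had probe sets of both signs. The remaining 25 genes, among them GMNN, PCNA, MCM2, MCM3 and all of polymerase epsilon, rested on 1 measured probe set each. The median absolute log2 difference between another probe set and the brightest was 0.69 for these genes and 0.56 for all genes. The standard deviation of that difference was 0.96 and 0.92. Differences between subunits near or below these values are within the spread between probe sets, and somewhat larger ones can be too.

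Replication genes outside this set, listed by role, were also lower on balance. Of 44 measured, 26 passed 1.5-fold on the lower side and 2 on the higher, and the median log2 ratio was -0.78. The share of all measured genes past 1.5-fold was 25.9% on each side. Among 17 regulators of licensing and firing, 11 were lower and 1 higher. DTL, which directs the destruction of CDT1, read 2708 and 457.3, 5.92-fold lower, and TICRR, needed to load CDC45, 726.3 and 148.7, 4.88-fold lower. DBF4B, a second activator of CDC7, read 446.0 and 114.0, the latter just above the floor of 112.4, and was 3.91-fold lower. MCM9, the partner of MCM8, was the higher one at 278.1 and 882.6, 3.17-fold. Among 17 further polymerase, clamp and lagging strand genes, 11 were lower and none was higher by 1.5-fold. There DNA2, a nuclease that trims flaps, read 876.1 and 156.0, 5.61-fold lower, and RNASEH2A, which removes RNA from DNA, 3988 and 1520.2, 2.62-fold lower. POLD4, the smallest subunit of polymerase delta, read 433.4 and 54.4, the latter under the floor, and was at least 3.86-fold lower. PCLAF, a PCNA-binding protein, read 17306 and 21994, a log2 ratio of 0.35 that turned to -0.017 after loess and -0.57 with spike-in scaling.

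The checkpoint genes that watch the fork were more mixed, with 4 of 10 at least 1.5-fold lower, 1 higher and a median of -0.24. All measured genes had 25.9% past 1.5-fold on each side. CDC25A, the phosphatase that activates cyclin-dependent kinases, read 1751 and 539.9, 3.24-fold lower. WEE1, the kinase that opposes it, read 4888 and 16084 and was 3.29-fold higher. ATR, the sensor kinase, read 1356 and 1783, a log2 ratio of 0.39 that turned to -0.52 with spike-in scaling.

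**Figure D4:**
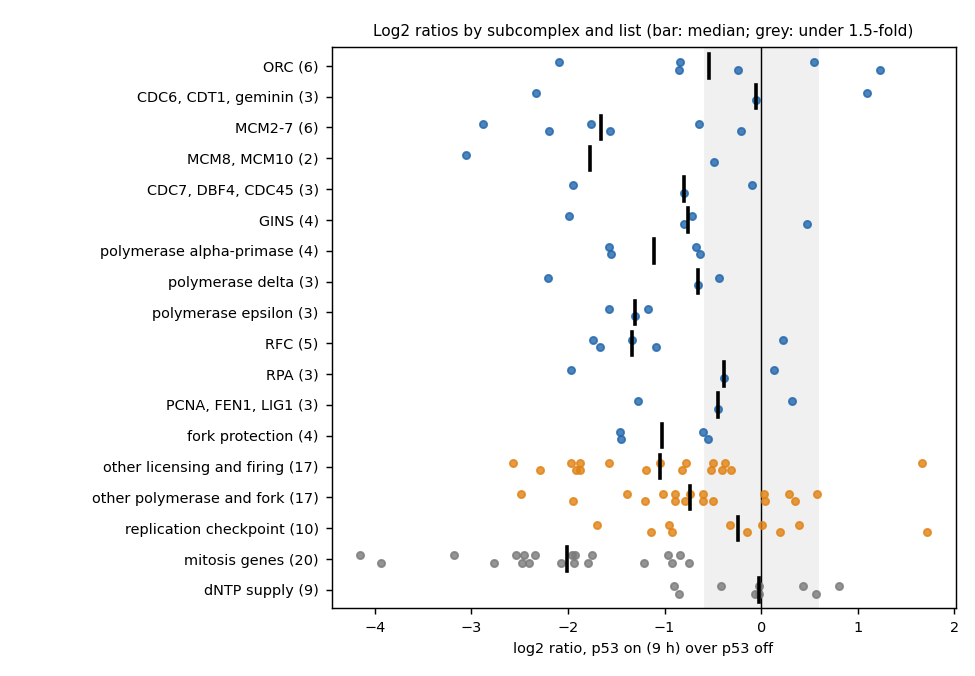
Log2 ratio of each gene (points) and the median (black bars) for the 13 groups of replication genes (blue), further replication and checkpoint genes (orange) and lists of mitosis and dNTP supply genes (grey), with the number of measured genes in brackets and a grey band for under 1.5-fold. The ring genes MCM2 to MCM7 have a median of -1.66, the ORC genes of -0.54 and the group of CDC6, CDT1 and geminin of -0.056, which becomes 0.18 after loess and 0.0087 after quantile normalization.

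Beside the replication median of -0.84, 20 mitosis genes had a median log2 ratio of -2.01, with all 20 at least 1.5-fold lower, and 9 measured genes of dNTP supply a median of -0.025, with 2 lower and 1 higher. With 1 array per condition the differences between these medians could not be tested. Of all measured genes, 25.9% were at least 1.5-fold lower and 25.9% higher. In dNTP supply, RRM2, the S phase subunit of ribonucleotide reductase, read 17368 and 9604, 1.81-fold lower. RRM1, the large subunit of that enzyme, was the higher gene at 13686 and 23942, 1.75-fold. The RRM1 log2 ratio of 0.81 came within 1.5-fold after quantile normalization (0.57) and loess (0.46), and turned to -0.11 with spike-in scaling. TYMS, thymidylate synthase, did not reach 1.5-fold at 20617 and 30459. The TYMS log2 ratio of 0.56 fell to 0.13 after quantile normalization and 0.10 after loess, and turned to -0.36 with spike-in scaling.

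**Figure D5:**
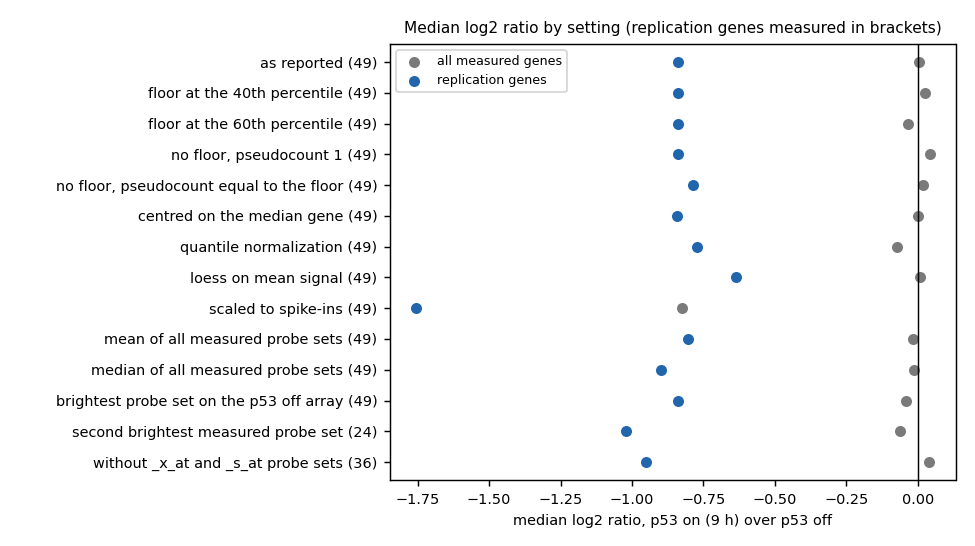
Median log2 ratio of the replication genes (blue) and of all measured genes (grey) under each processing setting, with the number of replication genes measured in brackets. The replication median lies below that of all genes in each setting shown, and spike-in scaling moves both to the left, to -1.76 and -0.83.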

How the data were processed

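RNA of DLD-1 cells was measured on 2 Affymetrix arrays, 1 per condition. The authors deposited signal intensities on a linear scale; MAS5 made them, per the submitters' processing notes, and its version and detection calls are not given there. Of 54613 probe sets that were not controls, 41091 had 1 symbol in GEO's platform annotation, brought up to date by Entrez ID with RefSeq's GRCh38.p14 gene table (41037 matched); 1801 with several symbols and 11721 unnamed ones were not used. The gene of p53 itself is not reported here.

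Signals under the 50th percentile of all signals (112.4) were set to it. A gene was read from its brightest probe set (mean of both arrays), and the log2 ratio is p53 on over p53 off. Genes were counted at 1.5-fold and 2-fold, with no test, since each group had 1 array. Every one of the 49 members may be named; of other lists, at most the 3 lowest and 2 highest. CDKN1A and the cell type markers are named as checks of the labels. The members, lists, thresholds and alternatives were chosen with earlier results of these data known. The code was tested on simulated data. Promoter windows came from RefSeq. Arrays have no read depth; their number limits the precision. Alternatives were other floors (40th and 60th percentile), pseudocounts (1, or the floor), scalings (median, quantile, loess with span 0.3, spike-ins) and choices of probe set. Scripts ran in Python 3.11.15 with pandas 2.3.3, numpy 2.4.6, statsmodels 0.14.6 (loess), scipy 1.17.1 and, for plots, matplotlib 3.10.9.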

Additional observations from a re-analysis of the deposited data

How the results depend on the processing

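The replication median stayed below that of all measured genes in all 13 alternatives with their own values, by 0.64 (loess) to 0.99 (no shared-sequence probe sets) on the log2 scale. Centring on the median gene moves both medians equally, so it could not change their difference. The other floors, and the brightest probe set on the p53 off array, left the replication median at -0.84. Scaled to the spike-ins, it was -1.76, with 0 genes at least 1.5-fold higher, and the medians were -2.03 for polymerase alpha and primase, -2.23 for polymerase epsilon, -2.26 for RFC, -1.36 for PCNA, FEN1 and LIG1, and -1.94 for fork protection. After loess, 27 genes were at least 1.5-fold lower and 4 higher, and the medians were -0.36 for polymerase delta and -1.06 for polymerase epsilon; the latter was -1.12 with a pseudocount equal to the floor, which left 29 genes lower, without POLA1 (-0.53), PRIM2 (-0.50), POLD1 (-0.58) and WDHD1 (-0.48). On the second brightest probe set, which 24 genes had, 16 were lower, polymerase delta rested on POLD3 at -0.021, the PCNA group on FEN1 at -2.71, and RFC5 changed sign to 0.74. Without probe sets marked _x_at or _s_at, 36 genes were left, 1 of them higher, and the licensing group rested on CDC6 at -3.14. Under both of these choices fewer genes were read, and some from another probe set: POLD3 was -2.20, FEN1 -1.28, RFC5 -1.09 and CDC6 -2.33 on the probe sets used above. The cause of the other changes was not tested. Of 33 genes at least 1.5-fold lower, 32 stayed below 0 in every setting apart from spike-in scaling, RFC5 being the exception, and 23 stayed past 1.5-fold. Each gene was read in 10 to 12 of these settings. Genes with 1 measured probe set were read from that probe set each time, so their sign had little room to change. Signals near the floor limit the dim second probe sets. No paired analysis was possible because each group has 1 array.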
